A study of Mus musculus with 4 samples.

Results

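Mature migratory dendritic cells are antigen-presenting cells that have taken up the receptor and the cell shape needed to leave a tissue for its draining lymph node. In the mid-colon of 7-week-old mice, 184 of 44356 kept cells (0.415%) met a rule on raw counts of unique molecular identifiers (UMIs, each standing for 1 captured transcript). The members were selected on at least 5 UMIs of H2-Ab1, a chain of MHC class II, and at least 3 UMIs of Fscn1, Ccl22 and Ccr7 together. They also had under 8 UMIs of the macrophage genes C1qa, C1qb and C1qc, under 2 of Epcam, under 5 of Col1a2, and 0 of Ms4a1 and of Cd3d, Cd3e and Cd3g. The colon of mice kept free of specified pathogens was sequenced by a droplet method that reads the 3-prime end of transcripts. The control group, with 2 libraries (control 1 and control 2), drank clean water. The DSS group, also with 2 libraries (DSS 1 and DSS 2), drank 3% dextran sulfate sodium, a polysaccharide that injures the colonic lining, for 2 days. The labels give no strain, sex or genotype and do not say whether libraries of a group came from separate mice. P-values therefore reflect only how far a difference between kinds of cell varies over these libraries. That variation may be technical.

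Dendritic cells sample antigen in the gut wall, and most of them carry uptake and sensing receptors while they do so. On maturation they switch on Ccr7, the receptor for the lymph node chemokines Ccl19 and Ccl21, and Fscn1, which encodes the actin-bundling protein fascin needed for their long processes. Mature cells also secrete Ccl22 and Ccl17, ligands of the T cell receptor Ccr4, and show costimulatory proteins to T cells. The members are described here against dendritic cells with at least 1 UMI of Cd209a, a C-type lectin of conventional type 2 dendritic cells. These 288 comparison cells met the same limits but had fewer than 3 UMIs of the 3 key genes, and are called Cd209a cells below. Levels are given as CPM, the UMIs of a gene per 1000000 UMIs of the cells summed.

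The files held 101051573 to 109472082 UMIs a library in 10966 to 13093 barcodes, and the kept cells had medians of 4916 to 6426 UMIs.
Pairs of libraries shared 28 to 41 kept barcodes. Cells with at least 5 UMIs of Epcam, an epithelial marker, made up 57.4% of the kept cells of control 1, 55.6% of control 2, 15.2% of DSS 1 and 33.2% of DSS 2, which moves any share of all cells.

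The members lay mostly in the DSS libraries, which the choice of these cells already used and which is therefore given without a test. Control 1 held 3 members, control 2 held 14, DSS 1 held 85 and DSS 2 held 82, so that 167 of 184 (90.8%) came from DSS. As a share of kept cells this was 0.0322% in control 1 (exact 95% binomial interval 0.00664% to 0.0940%) and 0.130% in control 2 (0.0712% to 0.218%). It was 0.706% in DSS 1 (0.564% to 0.872%) and 0.669% in DSS 2 (0.533% to 0.830%). The group means were 0.0812% ± 0.0693 (SD, n = 2) in control and 0.688% ± 0.0260 in DSS. The intervals cover counting error only. Among cells with fewer than 5 Epcam UMIs the shares were 0.0755%, 0.293%, 0.833% and 1.00% in the same order, so both DSS libraries stayed above both controls on that base. Cd209a cells numbered 29, 20, 188 and 51, of which 239 (83.0%) came from DSS. The members' part of both kinds of cell together was 9.38% in control 1 and 41.2% in control 2, against 31.1% in DSS 1 and 61.7% in DSS 2. On this base the groups overlapped, with control 2 above DSS 1. There were 2.26 and 8.59 members per 100 macrophages (at least 8 C1q UMIs) in the control libraries and 11.2 and 36.3 in the DSS libraries. Cell yields were not analysed here.

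**Figure D1:**
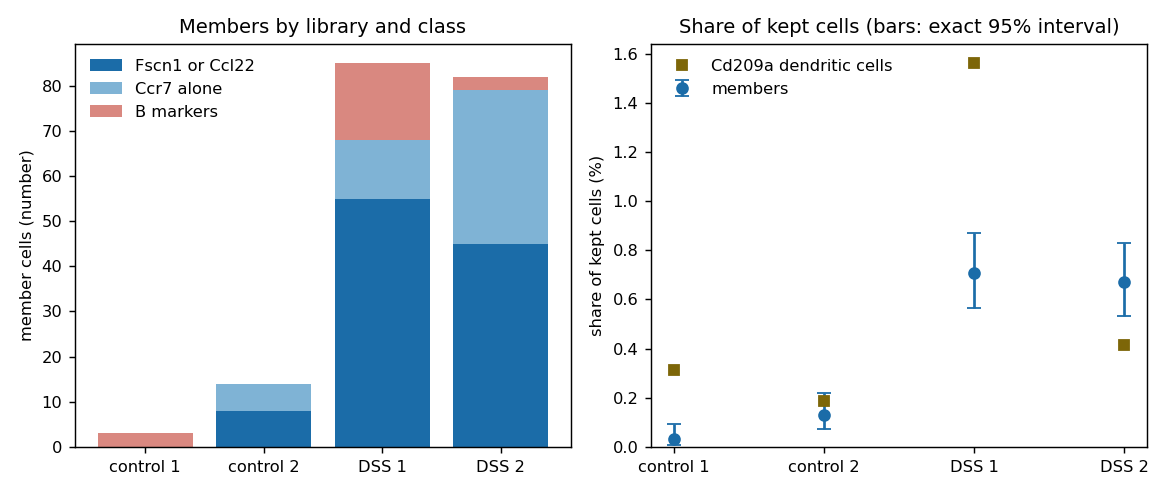
Left, number of members in each of the 4 libraries, coloured by the class of member (UMIs of Fscn1 or Ccl22, of Ccr7 alone, or of B cell markers). Right, share of kept cells (%) that are members, with exact 95% binomial intervals, and that are Cd209a cells. The 85 and 82 members of DSS 1 and DSS 2 stand against 3 and 14 in the controls, and all 3 members of control 1 carry B cell markers.

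The members were not uniform. The rule required UMIs of Fscn1, Ccl22 or Ccr7, so how often these genes were detected is a description and cannot support the label. Ccr7 was detected in 170 of the 184, Ccl22 in 103 and Fscn1 in 41, and 35 cells held all 3. The sum of the 3 genes ran from 3 to 307 UMIs with a median of 9.5. At the edge of the rule, 28 members had 3 UMIs and 16 had 4, while 48 cells with 2 UMIs stayed outside. Apol7c, an apolipoprotein L gene also given as a marker of these cells, had 30.2 CPM in the cells at 2 UMIs and 0 in those at 3 and at 4. Ccr7 alone does not mark the type, since it was also detected in 55.8% of B cells (Ms4a1 at least 2) and 17.4% of T cells, against 1.10% of epithelial cells, which give the level of free RNA. Apol7c was detected in 21.7% of members and 23.5% of macrophages, at median depths of 6132 and 5965.5 UMIs, and in 3.47% of Cd209a cells and 0.515% of epithelial cells (median depth 13920.5). It too was thus not limited to the members.

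Members fell into classes that were drawn after their values had been seen and that are given without a test. In 23 members there were at least 3 UMIs over a set of B cell genes that included Cd79a, Cd79b, Pax5 and Ebf1. These lay in control 1 (3 cells), DSS 1 (17) and DSS 2 (3), and their depth was low, with a median of 2323 UMIs. They held 103 UMIs of Ccr7, 1 of Ccl22 and 0 of Fscn1, Apol7c, Ccl17, Il12b and Cd209a. Cd79a, a part of the B cell antigen receptor, reached 1371 CPM in them, against 1830 CPM in B cells, 1.25 CPM in members with Fscn1 or Ccl22 and 0 in those with Ccr7 alone. Pax5, the B lineage transcription factor, lay at 312 CPM in them and 299 CPM in B cells. Over the 5 markers of conventional dendritic cells they summed 149 CPM in DSS 1 and 215 CPM in DSS 2. In control 2, DSS 1 and DSS 2, members with Fscn1 or Ccl22 summed 8268 to 13009 CPM. Those with Ccr7 alone summed 4597 to 10973 CPM. These sums also hold Cst3, and the pooled Flt3 and Zbtb46 levels given below are a small part of them. The label of a dendritic cell is not borne out for the 20 cells with B cell markers of DSS 1 and DSS 2. The 3 cells of control 1, which holds no other member, summed 14491 CPM over the same markers, all of it Cst3 (125 UMIs), which encodes cystatin C, with 0 UMIs of Flt3, Zbtb46, Itgax and Dpp4. They also summed 5217 CPM over the B cell markers and 22606 CPM over the macrophage markers, the latter all Apoe (195 UMIs), so their label is not settled by these markers. The other 161 members divided into 108 with a UMI of Fscn1 or Ccl22 (8 in control 2, 55 in DSS 1 and 45 in DSS 2) and 53 with Ccr7 alone (6, 13 and 34). Both kinds held the dendritic cell genes Flt3, the receptor of a dendritic cell growth factor (80.2 and 142 CPM), and Zbtb46, a transcription factor of conventional dendritic cells (61.4 and 37.1 CPM). Without the cells with B cell markers, DSS 1 held 68 members (0.565%) and DSS 2 held 79 (0.645%), against 0 in control 1 and 14 in control 2. Scrublet predicted 1 of the 184 members as a doublet.

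**Figure D2:**
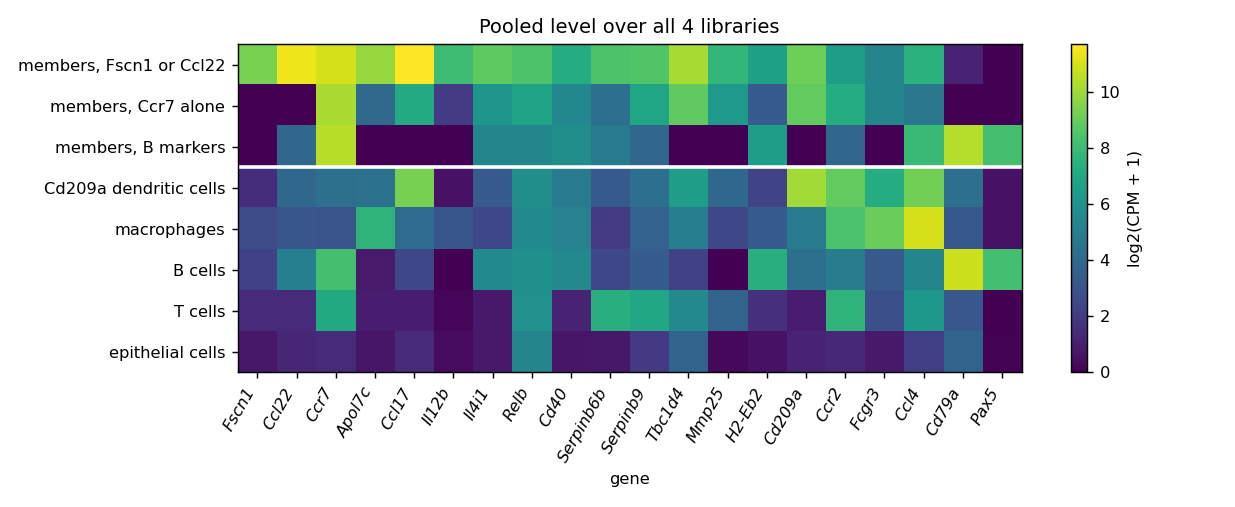
Pooled level, log2(CPM + 1), of 20 genes (columns) in the 3 classes of member above the white line and in Cd209a cells and 4 other kinds of cell below it, over all 4 libraries. Members with B cell markers share Cd79a and Pax5 with B cells (1371 and 1830 CPM of Cd79a) and have 0 UMIs of Apol7c and Ccl17.

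Fscn1 split the dendritic members further. Of the 108 cells with Fscn1 or Ccl22, 41 held Fscn1 (3 in control 2, 30 in DSS 1 and 8 in DSS 2) and 67 held Ccl22 without it (5, 25 and 37). The rule used neither Cd209a nor any gene of the next sentences, but the split itself was made after seeing the data, and cells are not replicates, so only counts are given. Cd209a was detected in 4 of the 41 Fscn1 cells and in 52 of the 67 others. By library these were 0 of 3, 3 of 30 and 1 of 8 against 3 of 5, 20 of 25 and 29 of 37 in control 2, DSS 1 and DSS 2, the same order in each. Ccr2, the receptor that draws monocytes and dendritic cell precursors into tissue, was found in 0 of 41 against 27 of 67 cells. Clec10a, a lectin of type 2 dendritic cells, was also found in 0 against 26. Il1b, the inflammatory cytokine, was detected in 15 of 41 cells at 457 CPM against 62 of 67 cells at 3253 CPM. Depth was similar, with medians of 7342 and 6468 UMIs.

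In the other direction, Il4i1, an enzyme that consumes phenylalanine and restrains T cells, was found in 39 of the 41 Fscn1 cells and 29 of the 67 others. Relb, the transcription factor of the alternative NF-kB pathway, was found in 40 and 39 cells, at 588 and 180 CPM. Apol7c was found in 29 and 9 cells, at 2099 and 224 CPM, and Cd63, a tetraspanin of endosomes, in 37 and 15 cells. Ccl17 did not follow this split, with 28 of 41 cells (68.3%) and 46 of 67 (68.7%). With every cell thinned to 2000 UMIs, which left out 1 Fscn1 cell and 3 others, Apol7c was found in 60% and 10.9%, Il4i1 in 77.5% and 28.1%, Il1b in 30.0% and 87.5%, and Cd209a in 0% and 59.4%. Members with Ccr7 alone held Cd209a in 30 of 53 cells, Clec10a in 21, Ccr2 in 18 and Il1b in 45, and Il4i1 in 7 and Apol7c in 2. They lay below the cells with Ccl22 but no Fscn1 in Il4i1 (13.2% against 43.3%) and also in Cd209a (56.6% against 77.6%) and Lyz2 (35.8% against 59.7%), so no single order from Cd209a cells to Fscn1 cells held for every gene.

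**Figure D3:**
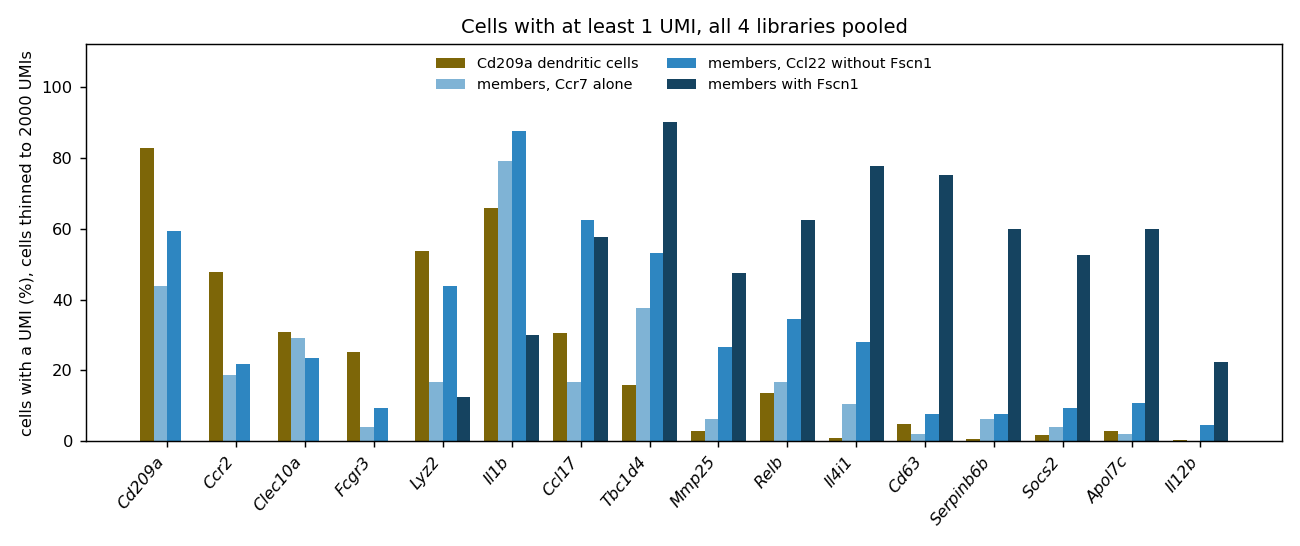
Share of cells (%) with at least 1 UMI of 16 genes after each cell was thinned to 2000 UMIs, pooled over libraries, in Cd209a cells, in members with Ccr7 alone, in members with Ccl22 but no Fscn1 and in members with Fscn1. Cd209a was required in the first kind of cell before thinning. Il4i1 lay at 77.5% in Fscn1 cells and 28.1% in those with Ccl22 only, while Il1b lay at 30.0% and 87.5%.

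The members were then compared with the Cd209a cells of the same library, in the 3 libraries with at least 10 cells of both kinds (control 2, DSS 1 and DSS 2). The fit held 181 members and 259 Cd209a cells in 6 sums, with the library as a block and with the 14 genes of the rule left out. Of 4811 genes tested by edgeR's quasi-likelihood test with Benjamini-Hochberg adjustment, 147 (3.06%) were higher in members and 71 (1.48%) were lower at an adjusted p under 0.05. The genes that rose included immunoregulatory, NF-kB and survival genes. Those that fell included inflammatory chemokines, Fc receptors and genes of monocytes. These calls rest on few libraries. Without DSS 2 only 3 rose and 0 fell (503 genes had an unadjusted p under 0.05), without DSS 1 the counts were 47 and 32, and without control 2 they were 106 and 25. A fit of the same 6 sums without the library block, added after seeing the data, called 5 and 2. One that also held the Cd209a cells of control 1 (7 sums) called 9 and 1. DESeq2 called 63 and 27, all of them among the 147 and 71. With the cells that carry B cell markers left out of both states the counts were 146 and 66. With the 108 members that had Fscn1 or Ccl22 the counts were 160 and 60. With the 53 that had Ccr7 alone they were 4 and 18, from fewer cells and 2613 genes.

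**Figure D4:**
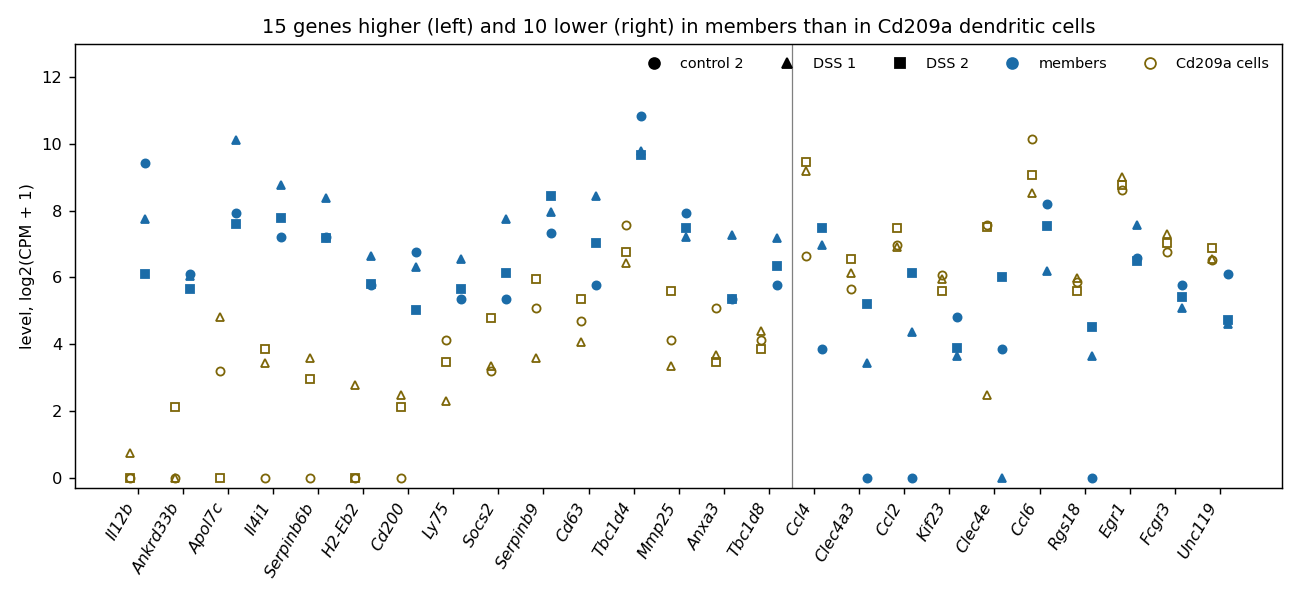
Level, log2(CPM + 1), of the 15 genes with the largest rise and the 10 with the largest fall among called genes of at least 50 CPM that are no markers of other cell types, in members (filled) and Cd209a cells (open) in control 2, DSS 1 and DSS 2. Within each library the members lie above the Cd209a cells for the genes on the left, from Il12b to Tbc1d8, and below them on the right, from Ccl4 to Unc119.

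Il12b, the p40 chain shared by the cytokines IL-12 and IL-23, showed the largest rise. Members had 686, 213 and 67.1 CPM in control 2, DSS 1 and DSS 2, and Cd209a cells had 0, 0.652 and 0 CPM. No member sum overlapped with a Cd209a sum. That is 214 UMIs against 1, a ratio of levels of 352 with an exact 95% counting interval of 62.5 to 13972 (adjusted p = 1.96e-06, edgeR). The counting interval treats UMIs as independent and leaves out the spread between cells and libraries. The transcripts lay in 16 members only, and 1 cell held 58.8% to 62.0% of the UMIs in each library. Il12a, the partner chain of IL-12, had 2 UMIs in members and Il23a, that of IL-23, had 4, while Ebi3, a partner chain of related cytokines, had a log2 fold change of 0.64 (adjusted p = 0.393).

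Apol7c, whose family of proteins acts on membranes, had 242, 1107 and 194 CPM in members and 8.22, 27.4 and 0 CPM in Cd209a cells. Every member sum was higher than every Cd209a sum, and DSS 1 stood out as the highest (log2 fold change 5.58, SE 0.34, adjusted p = 2.42e-06, edgeR). It was found in 40 members, and in DSS 2 a single cell held 56.1% of its UMIs. The gene had been named as a marker from these data, so its rise is not independent support for the label. Of the other 9 apolipoprotein L genes listed, none passed the filter on low counts, and Apol10b had the most UMIs in members, 8 against 0.

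Ccl17 had 121, 3551 and 1179 CPM in members of control 2, DSS 1 and DSS 2, against 107, 803 and 191 CPM in Cd209a cells. The difference was small in control 2, where 2 of 14 members held the gene, and large in both DSS libraries (2.21, SE 0.28, adjusted p = 0.0012). Without DSS 2 the change was 1.81 and missed the threshold (adjusted p = 0.282), and without the block in the same 6 sums it was 1.95 (0.386). In members with Ccr7 alone it turned to -1.32 (adjusted p = 0.223). Ccl22, used by the rule, had 390, 2582 and 1181 CPM in the members of the same libraries. Ccl17 (94810453 to 94812036) and Ccl22 (94745590 to 94751699) both lie on chromosome 8 of GRCm38.

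Of 16 immunoregulatory genes listed, 9 could be tested, and 4 rose and 0 fell, with a median log2 fold change of 1.5 beside 0.01 over all genes tested, of which 3.06% rose. Il4i1 had 148, 437 and 221 CPM in members and 0, 9.78 and 13.4 CPM in Cd209a cells, with no overlap (5.30, SE 0.38, adjusted p = 9.12e-06). Cd200, a surface ligand that quiets myeloid cells, had 108, 79.2 and 31.6 CPM against 0, 4.57 and 3.35 CPM (4.24, adjusted p = 0.000884), with 87.5% of its control 2 UMIs in 1 cell. Socs2, an inhibitor of cytokine signalling, had 40.3, 214 and 69.1 CPM against 8.22, 9.13 and 26.8 CPM (3.62, adjusted p = 0.00431). Cd274, which encodes the checkpoint ligand PD-L1, was even across libraries in members, at 161, 172 and 164 CPM against 57.6, 39.1 and 117 CPM (1.5, adjusted p = 0.0266, and 0.0585 with DESeq2). Aldh1a2, the retinoic acid enzyme of gut dendritic cells, had 53.8, 135 and 41.5 CPM against 16.4, 20.2 and 50.3 CPM and did not pass (1.80, adjusted p = 0.0839). Il10 had 2 UMIs in members and Ido1 had 2.

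A pair of protease inhibitors of the serpin family rose together. Serpinb6b had 148, 333 and 144 CPM in members and 0, 11.1 and 6.71 CPM in Cd209a cells (5.02, SE 0.36, adjusted p = 9.12e-06). Serpinb9, which blocks granzyme B and so protects cells from killing, had 161, 247 and 346 CPM against 32.9, 11.1 and 60.3 CPM (3.49, SE 0.40, adjusted p = 0.000694). Neither overlapped between the states. Both lie on chromosome 13, Serpinb6b from 32965209 to 32979067 and Serpinb9 from 33003250 to 33017957. They are members of a family of close relatives, so the division of reads among them is uncertain, as it is for Bcl2a1b and Bcl2a1d.

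Apol7c and Serpinb9 were the 2 of 13 rising named genes with a RefSeq promoter (250 bases before to 50 after the start, GRCm38.p6) that held GAAA, any 2 bases and GAAA again, the paired half-site of interferon regulatory factors. They are shown because they share these letters and the rise. On both strands the motif was found in 3.44% of 32851 promoters. The capitals below mark it, in both genes on the opposite strand. In Serpinb9 (chr13:33004291-33004590, plus strand) it lies 46 to 37 bases before the start. In Apol7c (chr15:77533266-77533565, minus strand) 2 overlapping matches lie 55 to 46 and 49 to 40 bases before the start.
Serpinb9: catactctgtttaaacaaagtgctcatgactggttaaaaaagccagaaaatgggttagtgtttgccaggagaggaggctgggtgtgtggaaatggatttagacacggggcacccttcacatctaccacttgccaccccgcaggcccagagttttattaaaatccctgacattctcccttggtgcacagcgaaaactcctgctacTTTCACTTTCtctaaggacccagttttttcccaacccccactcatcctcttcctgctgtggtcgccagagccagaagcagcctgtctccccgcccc
Apol7c: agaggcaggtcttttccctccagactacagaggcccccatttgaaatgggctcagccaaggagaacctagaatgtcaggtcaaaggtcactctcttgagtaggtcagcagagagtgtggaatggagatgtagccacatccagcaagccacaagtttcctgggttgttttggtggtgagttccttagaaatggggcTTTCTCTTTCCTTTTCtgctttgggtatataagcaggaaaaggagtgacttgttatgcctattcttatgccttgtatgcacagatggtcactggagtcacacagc
The other 5 patterns searched, also on both strands and overlapping each other in part, were 3 for NF-kB (GGG, any 2 bases and TTTCC, then GGGA, any base and TTTCC, and GGG, any 3 bases and TTCC), 1 for Ets and interferon factors together (GGAA, any 2 bases and GAAA) and TGANTCA for AP-1. They were found in 0, 0, 1, 1 and 0 of the 13 genes and in 1.63%, 0.411%, 5.56%, 2.72% and 7.81% of all promoters. The patterns were chosen after the gene values were known, and a match is a description of the letters only.

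The remaining rises among the named genes were of several kinds. Tbc1d4, a regulator of vesicle traffic, was the most evenly spread, in 118 members, with 1828, 878 and 808 CPM against 189, 85.5 and 107 CPM (3.29, SE 0.19, adjusted p = 1.96e-06). With Il12b and Apol7c it was 1 of the 3 genes still called without DSS 2 (adjusted p = 0.0376 for each). It also rose in members with Ccr7 alone (2.34, adjusted p = 0.00454). Ankrd33b, an ankyrin repeat gene, had 67.2, 64.3 and 49.4 CPM against 0, 0 and 3.35 CPM, or 69 UMIs against 1 (ratio 114, counting interval 19.7 to 4548). That interval too leaves out the spread between cells and libraries. DESeq2 gave no adjusted p for Ankrd33b. Ly75, the endocytic receptor DEC-205, lay at 40.3, 92.4 and 49.4 CPM against 16.4, 3.91 and 10.1 CPM (3.73, adjusted p = 0.00307). H2-Eb2, a relative of the MHC class II beta chain, rose too (4.43, adjusted p = 0.000396), although it also stood at 168 CPM in B cells. Mmp25, a membrane-bound metalloprotease (3.25), Cd63 (3.41), the annexin gene Anxa3 (3.13) and Tbc1d8 (2.81) completed the 15, with adjusted p between 0.000929 and 0.00567. Cd63 had 53.8, 348 and 130 CPM against 24.7, 15.7 and 40.2 CPM, highest in DSS 1, and without DSS 1 its change was 1.64 and missed the threshold (adjusted p = 0.0658).

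With all 4 libraries pooled, the rises sat largely in the members that held Fscn1. These 41 cells carried 26.9% of all UMIs of the members. They carried 85.8% of those of Apol7c, 88.5% of Serpinb6b, 88.9% of Cd200, 90.6% of Anxa3, 77.6% of Il12b, 63.2% of Tbc1d4 and 50.3% of Mmp25, the lowest of the 15. Of the Ccl17 UMIs they held 33.8%. Of the genes that fell they held 0% (Clec4a3 and Clec4e) to 25% (Egr1). All these shares are pooled, with 30 of the 41 cells in DSS 1, and need not hold in each library. In DSS 2 Il12b lay at 281 CPM in the Fscn1 cells (3 of 8) and at 86.2 CPM in those with Ccl22 only (1 of 37). In control 2 Tbc1d4 lay at 2624 CPM in the Fscn1 cells and 1853 CPM in those with Ccr7 alone. The Fscn1 cells were 3 in control 2, 30 in DSS 1 and 8 in DSS 2, so the libraries enter the comparison with unequal mixtures, and how far this sets the differences between libraries was not tested.

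Genes of maturation other than those of the rule were listed by role. Of 8 costimulatory genes tested, 2 rose and 0 fell, with a median log2 fold change of 0.57. Over all genes tested 3.06% rose and 1.48% fell. Cd40, the receptor through which T cells license dendritic cells, had 67.2, 115 and 126 CPM in members and 65.8, 20.2 and 33.5 CPM in Cd209a cells, nearly level in control 2 and higher in DSS (2.05, SE 0.38, adjusted p = 0.0111). Cd86 rose less (0.91, adjusted p = 0.0457), and missed the threshold with library totals as the scaling (0.0591) and with DESeq2 (0.200). Cd80 (0.66, adjusted p = 0.301) and Cd83 (0.49, 0.122) did not pass. All 14 NF-kB pathway genes tested had a positive log2 fold change, with a median of 0.70, and 3 rose. Of all genes tested, 51.2% had a positive change. Relb had 202, 350 and 174 CPM against 107, 44.4 and 101 CPM, with no overlap (1.92, SE 0.41, adjusted p = 0.0204). Rel (0.80, adjusted p = 0.0102) and Tnfaip2 (1.12, 0.00925) rose as well, and Nfkb2, the partner of Relb, had 0.99 and did not pass. DESeq2 gave no call for Rel (adjusted p = 0.0714).

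Among 9 survival genes tested 3 rose, while 3.06% of all genes tested rose and 1.48% fell. Birc2, an inhibitor of apoptosis that also controls NF-kB, had 108, 168 and 92.8 CPM in members and 24.7, 39.8 and 33.5 CPM in Cd209a cells (2.03, SE 0.29, adjusted p = 0.00281). The Bcl2 relatives Bcl2a1b (1.42, adjusted p = 0.0135) and Bcl2a1d (1.18, 0.0197) rose with it. Among 16 transcription factors tested 5 rose and 0 fell. Stat4, a mediator of IL-12 signalling, had 229, 163 and 190 CPM against 41.1, 32.0 and 93.9 CPM (1.96, SE 0.32, adjusted p = 0.00559). Nr4a3, an orphan nuclear receptor linked to Ccr7 induction, had 1129, 733 and 1110 CPM against 444, 202 and 560 CPM (1.5, SE 0.20, adjusted p = 0.00187). For both genes the states did not overlap. Stat5a (1.47), Zbtb46 (1.65) and Etv3 (0.65) rose too, the last 2 without a call by DESeq2 (adjusted p = 0.256 and 0.299).

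Migration genes other than Ccr7 and Fscn1 gave 3 rises among 10 tested, with a median of 0.78. For this and the following lists, 3.06% of all genes tested rose and 1.48% fell. Marcks, a membrane substrate that links to actin, had 1371, 1300 and 1317 CPM against 1020, 515 and 778 CPM (0.96, SE 0.19, adjusted p = 0.0136). Myo1g, a membrane-bound myosin (1.10, adjusted p = 0.0218), and Gpr183, the oxysterol receptor that positions dendritic cells (1.16, 0.0228), rose. DESeq2 gave no call for Myo1g (adjusted p = 0.0577) or Gpr183 (0.126). Itga4, an integrin chain, rose (1.20, adjusted p = 0.00272). Ccl19, a ligand of Ccr7, had 0 UMIs in both states. Of the MHC class II genes listed, which did not include H2-Eb2, 11 could be tested and 0 rose. H2-Aa (0.01, adjusted p = 0.977) and Cd74 (-0.03, 0.921) stood near 0. H2-DMb1, a chain of the peptide loader, fell (-0.96, adjusted p = 0.0154). Among 10 chemokine receptors and integrins tested Itga4 was the only rise and Ccr2 the only fall, and among 5 cytokines Il12b was the only call. Of 13 lysosomal genes Cd63 and Cst3 (0.57) rose and the protease gene Ctsd fell (-1.29). DESeq2 gave no call for Cst3 (adjusted p = 0.387) or Ctsd (0.0900). None of 10 class I and immunoproteasome genes passed, nor any of 12 proliferation genes or 5 type I interferon genes tested. Yet 0 of the 12 proliferation genes had a positive log2 fold change (median -0.67), beside 51.2% of all genes tested. For the class I list 7 of 10 were positive and for the interferon list 2 of 5. With library totals as the scaling Cst3 (adjusted p = 0.0521, edgeR) and Etv3 (0.0525) missed the threshold, as did Cd86. The same scaling gave 1 further fall in each of 5 lists, namely the receptor, transcription factor (4 rose and 1 fell), uptake (7 fell), lysosomal (1 rose and 2 fell) and proliferation lists.

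**Figure D5:**
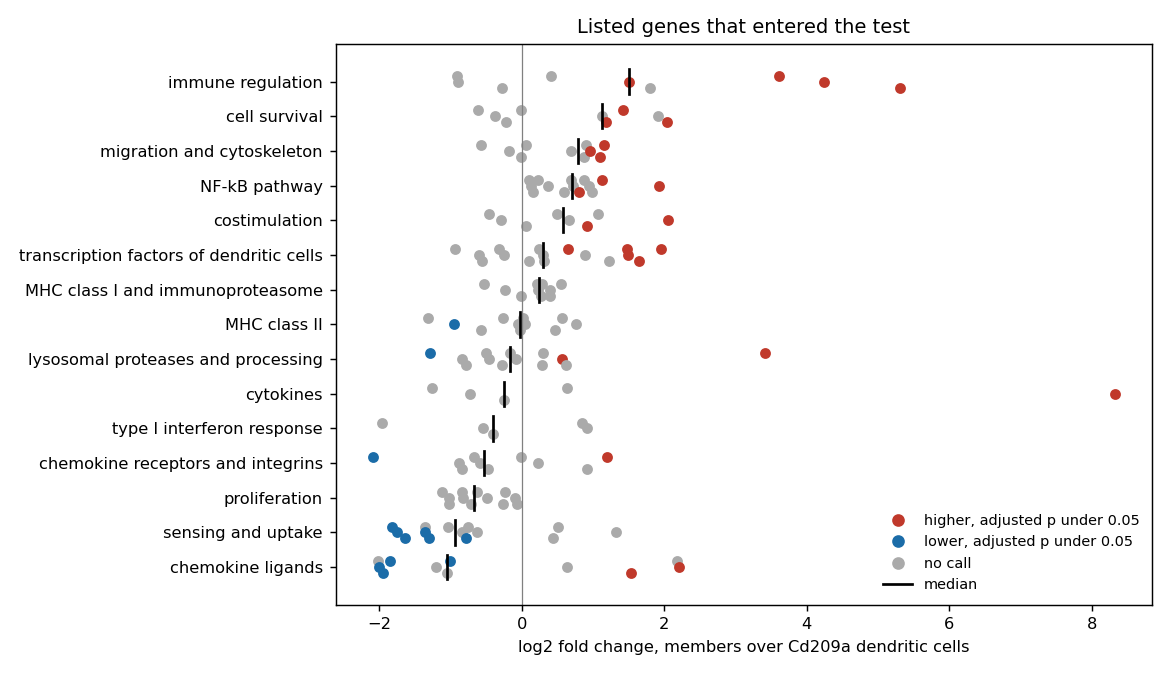
Log2 fold change of members over Cd209a cells (horizontal axis) for each tested gene of the lists with at least 5 tested genes (rows). Red genes were higher and blue genes lower at an adjusted p under 0.05 in edgeR, grey genes had no call, and the black bar is the list's median, from 1.5 for immune regulation to -1.05 for chemokine ligands.

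Among the falls were inflammatory chemokines. Of 11 chemokine genes tested 4 fell and 2 rose, beside 1.48% and 3.06% of all genes tested. Ccl4, an inflammatory chemokine, had 13.4, 125 and 178 CPM in members against 98.7, 579 and 701 CPM in Cd209a cells (-2.01, SE 0.22, adjusted p = 0.000428), lower in each library while the states overlapped across libraries. Ccl6 had 296, 72.6 and 184 CPM against 1135, 369 and 540 CPM (-1.85, SE 0.21, adjusted p = 0.000507). Ccl2, which attracts monocytes, had 0, 19.8 and 69.1 CPM against 123, 120 and 178 CPM, without overlap (-1.94, SE 0.37, adjusted p = 0.0121). Ccl9 fell by 1.01 on the log2 scale. In contrast Cxcl16, a membrane-bound ligand of Cxcr6, rose, with 430, 429 and 505 CPM against 222, 110 and 225 CPM (1.54, SE 0.24, adjusted p = 0.00477).

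Of 14 listed genes of uptake and sensing tested, 6 fell and 0 rose, with a median of -0.94, beside 1.48% and 3.06% of all genes tested. The list did not hold Ly75, the uptake receptor that rose. Fcgr3, an activating Fc receptor, had 53.8, 33.0 and 41.5 CPM against 107, 159 and 131 CPM, without overlap (-1.75, SE 0.29, adjusted p = 0.00644). The inhibitory Fc receptor gene Fcgr2b (-1.30), the mannose receptor gene Mrc1 (-1.64), Clec4a2 (-1.35), Fcer1g (-0.78) and the lysozyme gene Lyz2 (-1.82) fell as well. The lectins Clec4a3 (-1.97, adjusted p = 0.0174) and Clec4e (-1.86, 0.0289) were among the 10 largest falls, and Clec4e lay at 4.57 CPM even in the Cd209a cells of DSS 1. The change of Clec4e was -0.82 (adjusted p = 0.525) when Cd209a cells with any C1q UMI were left out and -0.96 (0.481) when at least 2 UMIs of Cd209a were required. Leaving out cells with C1q UMIs also cost Clec4a2 (-1.10, edgeR adjusted p = 0.0706) and Fcer1g (-0.68, 0.0527) their calls. In that setting Lyz2 shrank to -1.11 (0.0230), and Fcgr3 (0.0309), Fcgr2b (0.0251) and Mrc1 (0.00857) were still called. Ccr2 had 121, 89.1 and 124 CPM in members and 576, 445 and 513 CPM in Cd209a cells, without overlap (-2.09, SE 0.20, adjusted p = 0.000161). The immediate early gene Egr1 (-1.75, adjusted p = 0.00213), the kinesin gene Kif23 (-1.90), Rgs18 (-1.82) and Unc119 (-1.72) made up the rest of the 10. DESeq2 gave no call for Kif23 (adjusted p = 0.178), Unc119 (0.0882), Clec4a3 (0.0702), Clec4e (0.0526), Clec4a2 (0.152) and Fcer1g (0.114), and no adjusted p for Rgs18.

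Markers of monocytes and macrophages moved with these falls. The 7 monocyte markers, among them Ccr2 and Lyz2, summed 1896, 553 and 1495 CPM in members and 5667, 2245 and 3835 CPM in Cd209a cells. Ly6c2, which defines inflammatory monocytes, had 9 and 151 UMIs. The 11 macrophage markers summed 497, 355 and 770 CPM against 1505, 826 and 1251 CPM. They include Mrc1, given above, and C1qa, C1qb and C1qc, which the rule limits in both states. When Cd209a cells with any C1q UMI were left out, 39 genes fell. Further falls that were not called there were Ccl9 (-0.62, edgeR adjusted p = 0.124), Ctsd (-0.82, 0.228) and Rgs18 (-1.78, 0.0503). The rises of Cst3 (0.201), Gpr183 (0.0860) and Cd274 (0.0530) also missed the threshold in that setting. B cell markers were higher in members in DSS 1, at 403 CPM in members and 95.9 CPM in Cd209a cells, and in DSS 2, at 79.0 and 13.4 CPM, while in control 2 they lay at 0 and 8.22 CPM. With the 20 members and 3 Cd209a cells of the fit that carry B cell markers left out, all 15 rises and 10 falls were still called. The 5 plasma cell markers summed 17476 CPM in members and 22686 CPM in Cd209a cells of DSS 1, against 1082 to 4638 CPM in both states of the other 2 libraries, and 127689 CPM in the B marker members of DSS 1 alone. Neutrophil markers lay at 0, 208 and 13.8 CPM in members, and 1 DSS 1 cell held all 43 UMIs of S100a8. Of the markers of plasmacytoid dendritic cells, Siglech had 1 UMI in members and 65 in Cd209a cells, of which 64 lay in DSS 1. The T cell genes Cd3d, Cd3e and Cd3g were at 0 by the rule, and the part of these other markers in the differences was not tested.

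Whether members differed between DSS and control was not tested, because control 1 held 3 members and none with Fscn1 or Ccl22. In members with Fscn1 or Ccl22, control 2 had 1079 CPM of Il12b against 274 and 121 CPM in DSS 1 and DSS 2, and 194 CPM of Ccl17 against 4557 and 1989 CPM. Apol7c stood at 389 CPM in control 2, 1425 CPM in DSS 1 and 333 CPM in DSS 2, so the DSS libraries lay on both sides of the control. These control values come from 8 cells, of which 2 held Il12b, 2 held Ccl17 and 3 held Apol7c.

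On GRCm38, Il12b (ENSMUSG00000004296) lies on chromosome 11 from 44400063 to 44414033, Apol7c (ENSMUSG00000044309) on chromosome 15 from 77524852 to 77533316, and Il4i1 (ENSMUSG00000074141) on chromosome 7 from 44816387 to 44840809. Tbc1d4 (ENSMUSG00000033083) lies on chromosome 14 from 101442360 to 101609191. Of the genes of the rule, Ccr7 (ENSMUSG00000037944) lies on chromosome 11 from 99144196 to 99155077 and Fscn1 (ENSMUSG00000029581) on chromosome 5 from 142960343 to 142973185.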

How the data were processed

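Deposited values are whole-number UMI counts per gene and barcode in 4 libraries. Per the submitters' processing notes, the authors used Cell Ranger 6.1.1 with GRCm38. Further settings: not given in the sources used here. Barcodes with at least 500 UMIs, 250 genes and at most 25% mitochondrial UMIs were kept. Doublets were predicted with Scrublet in scanpy 1.11.5 and kept. UMIs were summed per library and state, and compared by the quasi-likelihood test (two-sided) in edgeR 4.0.16 (R 4.3.3, TMM, filterByExpr, library as block, Benjamini-Hochberg over all genes tested, threshold 0.05). Both states of a library come from 1 suspension, which pairs them. Their deviations correlated at 0.177, 0.391 and 0.300. SE is that implied by the F statistic.

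The members, gene lists and markers were chosen with earlier results of these data known. Named genes were the 15 largest rises and 10 largest falls past the threshold, in the same direction in all 3 libraries, at a mean of 50 CPM or more in the higher state, without markers of other cell types. Members of the gene lists could be named whatever their value. The files list 55450 genes, and some items are not reported here. Gene positions come from GENCODE M21 and promoters from RefSeq. On simulated data with 4567 genes tested, 50 of 50 genes raised 4-fold and 28 of 49 raised 2-fold were called, and 32 of 36 lowered to 0.25 and 11 of 42 lowered to 0.5 of their level. Of 4390 unchanged genes 1 was called. The simulated counts followed the fitted dispersion trend only, with no gene carried mostly by 1 cell, so these rates do not cover such genes. DESeq2 1.42.0 and the other alternatives follow in the closing section.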

Additional observations from a re-analysis of the deposited data

How the results depend on the processing

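The number of members was 184, and 109 when each cell was first thinned to 2000 UMIs. The mean share of members in DSS cells (0.688%) moved with the rule and the cells kept. It was 0.515% and 0.858% with the key genes at 5 or 2 UMIs, 0.588% with H2-Ab1 at 10 UMIs and 0.749% with at most 10% mitochondrial UMIs. It was 0.717% without predicted doublets, 0.474% after thinning and 0.605% without members that carry B cell markers, a setting chosen after seeing the data. It stayed above both control shares in each. The count of genes higher in members was 147, and 63 with DESeq2, 270 with no filter on low counts, 5 with no replicate block in the same 6 sums (added after seeing the data), 9 with no replicate block and the Cd209a cells of control 1 added, and 3 to 106 when 1 library was left out. Most calls were thus lost when the same sums were fitted without the pairing of states by library. With members that had Ccr7 alone it was 4. The count of lower genes was 71, and 27 with DESeq2, 152 with no filter, 2 and 1 in those fits without the replicate block, 0 to 32 when 1 library was left out, 41 with the key genes at 5 UMIs, 39 without C1q in the Cd209a cells and 18 with Ccr7 alone. The cause of the other changes was not tested. Library totals without TMM gave 120 higher and 106 lower (53.1% higher, against 67.4%) and moved the median of all genes from 0.01 to -0.09. Ccl17 turned to -1.32 in members with Ccr7 alone. Control 1 entered no comparison of states other than that fit of 7 sums, and 2 residual degrees of freedom limit the test.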

Other observations

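In the deposited barcodes that failed a cell filter, 1 in control 1 and 0 in the other 3 libraries met the UMI rule, so the filters removed almost no member. Xcr1 and Clec9a, markers of type 1 dendritic cells, were found in 4 and 10 of 184 members, and 7 of the 10 with Clec9a had Ccr7 alone. Rora, listed for innate lymphoid cells, was higher in members (2.42, edgeR adjusted p = 0.0156) in 17 cells.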
